A study of Mus musculus with 9 samples.

Results

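The mitosis and spindle genes are 54 mouse genes that act between entry into mitosis and the separation of daughter cells. They were listed by symbol for their roles and matched by gene identifier. All 54 were found among the 21936 genes listed for tumour cells and the 22060 listed for macrophages, and all 54 entered every comparison. RNA was sequenced in 9 libraries of strain C57BL mouse cells, with 1 library per group. Of these, 5 held the lung tumour line LLC (Lewis lung carcinoma) and 4 held macrophages grown from bone marrow (BMDM). The macrophages were of 2 kinds, labelled GM-BMDM and M-BMDM, each untreated or given tunicamycin for 4 h. Tunicamycin blocks N-linked glycosylation and thereby leaves misfolded proteins in the endoplasmic reticulum. The LLC cells were untreated, or were grown for 24 h in medium conditioned for 16 h by GM-BMDM or by M-BMDM. Those macrophages had been kept with or without tunicamycin for 12 h and then washed, so the hours of tunicamycin differ between the macrophage libraries and the media. Medium made after tunicamycin is called stressed, and medium made without it unstressed. No genotype change is labelled, the age of the mice and the make-up of the differentiation medium are not in the labels, nor is the medium of the untreated LLC cells.

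Cyclin-dependent kinase 1 with a B-type or A-type cyclin starts mitosis, and Polo-like and Aurora kinases build the spindle with motor proteins of the kinesin family. The kinetochore ties chromosomes to microtubules, and the spindle checkpoint holds the anaphase-promoting complex in check until each chromosome is attached. Transcripts of most of these genes build up late in the cell cycle and are made again in each round, and many of their promoters carry a cell cycle homology region (CHR) and CCAAT boxes, read by the DREAM and MYB-MuvB-FOXM1 complexes and by NF-Y. Their summed level is widely used to gauge how much of a culture is dividing. In bulk RNA a change in the share of dividing cells and a change of transcript per cell cannot be told apart.

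Promoter sequence was read from RefSeq (GRCm38.p6), which gave a window of 300 bases, from 250 before to 50 after the start, for 44 of the 54 genes. The CHR was searched as TTTGAA and the CCAAT box as CCAAT, each on both strands. A CHR match was found in 30 of 44 genes (68.2%), against 20.2% of all 27025 genes with a window and 14.8% of those compared in macrophages. A CCAAT match was found in 32 of 44 (72.7%), against 41.1% and 43.4%, and both stood in 26 of 44 (59.1%), against 7.97% and 6.25%. The variant TTCGAA was found in 5 of 44 genes (11.4%) and in 1.8% of all. A match is a run of letters, not a measured site. The stretches below, from 120 before to 30 after the start, are shown because they set motif matches beside the difference between the kinds of macrophage. Ccnb2, Cdk1, Cdc20 and Hmmr hold both motifs and rose in GM-BMDM, Bub3 holds both and did not pass the test, and Nusap1 holds neither and rose. In all, 8 genes had no match of TTTGAA or CCAAT in their windows (Birc5, Kif18a, Mad2l1, Melk, Mybl2, Nuf2, Nusap1 and Pttg1), of which 7 rose in GM-BMDM and Pttg1 fell. For 36 of the 44 genes a RefSeq start lay within 100 bases of the 5′ end of the gene in GENCODE M21. For the other 8 it did not. The nearest start lay 3867 bases inside the gene in Kif2c, 2394 in Cdca8, 328 in Kif4 and 270 in Pttg1. It lay 148 bases inside in Bub3, 115 in Ncapd2 and 109 in Cenpa, and before the 5′ end in Mad2l1 (-169). The windows of these 8 genes may miss the sequence before another start. Of them Kif2c, Cdca8, Kif4, Bub3, Ncapd2 and Cenpa are counted among the genes with a CHR match. The stretches below are written 5′ to 3′ on the strand of the gene. Capitals mark the CCAAT box (CCAAT or its reverse complement ATTGG) and the CHR (TTTGAA or its reverse complement TTCAAA).
Ccnb2 (chr9:70421525-70421674, minus strand): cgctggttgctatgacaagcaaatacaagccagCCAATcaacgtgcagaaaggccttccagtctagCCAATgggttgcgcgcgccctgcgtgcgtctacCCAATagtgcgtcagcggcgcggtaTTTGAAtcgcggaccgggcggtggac
Cdk1 (chr10:69352883-69353032, minus strand): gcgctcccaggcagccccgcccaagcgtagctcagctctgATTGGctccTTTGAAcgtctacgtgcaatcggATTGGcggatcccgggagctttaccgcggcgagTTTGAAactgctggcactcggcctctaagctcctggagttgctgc
Cdc20 (chr4:118437314-118437463, minus strand): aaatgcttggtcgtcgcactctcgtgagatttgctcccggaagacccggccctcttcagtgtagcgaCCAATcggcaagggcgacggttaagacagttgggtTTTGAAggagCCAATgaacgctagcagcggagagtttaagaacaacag
Hmmr (chr11:40733408-40733557, minus strand): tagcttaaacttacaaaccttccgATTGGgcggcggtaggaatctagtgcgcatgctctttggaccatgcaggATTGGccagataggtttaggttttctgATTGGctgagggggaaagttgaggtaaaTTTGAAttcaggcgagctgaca
Bub3 (chr7:131560250-131560399, plus strand): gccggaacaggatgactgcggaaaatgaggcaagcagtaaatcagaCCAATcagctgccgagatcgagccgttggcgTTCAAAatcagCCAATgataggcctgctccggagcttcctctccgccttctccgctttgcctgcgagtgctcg
Nusap1 (chr2:119618178-119618327, plus strand): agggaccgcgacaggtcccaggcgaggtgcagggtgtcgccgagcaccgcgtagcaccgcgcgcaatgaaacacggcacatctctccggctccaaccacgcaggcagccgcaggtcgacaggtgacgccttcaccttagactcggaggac

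The CHR lay close to the start in most promoters. Of 42 matches of TTTGAA, 33 fell from 100 before to 50 after the start, a stretch that holds 150 of the 300 bases, as did 52 of 76 CCAAT matches. In Ccnb2, which encodes cyclin B2, CCAAT boxes began 87, 54 and 21 bases before the start and a CHR match 4 bases after it. A further TTTGAA match in Ccnb2 began 167 bases before the start. Members with and without a TTTGAA match had nearly the same gap between kinds of macrophage. The median log2 difference between untreated GM-BMDM and untreated M-BMDM was 2.58 in the 30 genes with TTTGAA and 2.51 in the 14 without. Those without include Bub1, Cdc25b and Sgo1, which hold the variant TTCGAA, and Mad2l1 and Pttg1, whose windows may miss another start. Outside the 54 genes, 54.5% of 55 other mitosis genes with a window and 13.3% of 30 DNA replication genes held TTTGAA.

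**Figure D1:**
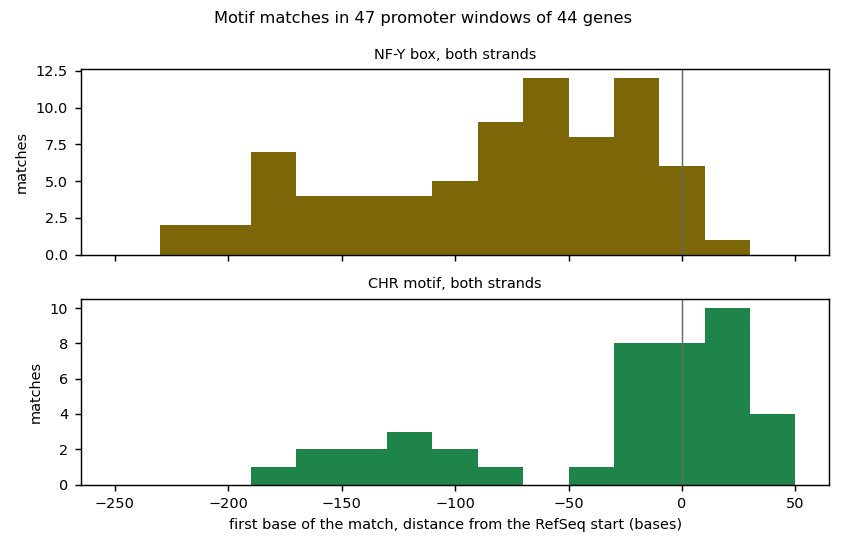
Number of motif matches (y axis) by distance in bases from the RefSeq start (x axis) in the promoter windows of 44 mitosis and spindle genes, with the NF-Y box (CCAAT) above and the CHR (TTTGAA) below. Of 42 CHR matches, 33 lie from 100 before to 50 after the start; genes with more than 1 window count once per window.

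Levels are given as CPM, read counts scaled to library size within a table, and levels of different genes are set against each other only as deposited FPKM, which divides by gene length. The assigned reads ranged from 15020068 to 17128471 in LLC and from 37695079 to 42751176 in BMDM. Since each group holds 1 library, a difference between 2 libraries has no replicate check, the 95% intervals cover nothing but counting error, and reads do not stand for independent molecules. The labels do not say that libraries came from separate cultures. Exon bases that overlap a gene on the other strand made up 29.3% of Kif20a, 22.8% of Ube2c, 15.1% of Kif4, 13.4% of Ncapg, 12.7% of Cdc25c, 12.5% of Ccna2 and 11.1% of Prc1. Since the strand setting of the counting was not given, reads of these pairs may be mixed. The macrophage markers Adgre1, Csf1r and Cd68 were present in all 4 BMDM libraries (Adgre1 at 434 CPM or more). In LLC the leukocyte genes Ptprc, Adgre1, Itgam, Mrc1 and Tyrobp had 0 counts in all 5 libraries. They belong to a list of 12 macrophage markers, of which 5 others reached a mean of 1 CPM in LLC. That list summed to 28.9 to 45.4 CPM there. The lung and epithelial genes Nkx2-1 and Krt19 also had 0 counts there, and Epcam and Cdh1 stood at most at 0.195 and 0.13 CPM, while Krt8 stood at 320 to 494 CPM and the collagen gene Col3a1 at 938 to 1650 CPM.

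The 54 genes together took 0.801% to 0.977% of reads in LLC and 0.0645% to 0.247% in BMDM. The 2 tables were normalized separately, so this gap is given as levels only. Per length, the median member stood at 23.6 to 27.4 FPKM in LLC, at 5.96 and 5.62 FPKM in untreated and tunicamycin-treated GM-BMDM, and at 0.732 and 0.895 FPKM in the M-BMDM libraries. The order of the genes differed between tables. By mean FPKM the proliferation antigen Mki67 (29.3) and the condensin subunit Smc4 (25.3) led in BMDM, and cyclin B2 (132) and topoisomerase Top2a (119) led in LLC. Bub3 ranked 5 in BMDM and 48 in LLC at nearly the same value (12.8 and 13.0 FPKM). Kif18a, a kinesin that damps chromosome movement, was lowest in both (0.601 and 2.5 FPKM).

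One question was whether GM-BMDM and M-BMDM differ in these genes. Nearly the whole module was higher in GM-BMDM. Summed over the 54 genes, untreated GM-BMDM held 2580 CPM and untreated M-BMDM 653 CPM, and after tunicamycin the sums were 2310 and 722 CPM. In the untreated pair 49 of 54 members were at least 2-fold higher (a difference of 1 or more in log2(CPM + 1)), against 12.4% of the 11049 genes compared, and 0 were at least 2-fold lower (7.02%). The median log2 difference was 2.51 for members and -0.03 for all genes. After tunicamycin 49 of 54 were again at least 2-fold higher (12.6% of all genes), with a median of 2.30 against -0.04. Both GM-BMDM libraries lay above both M-BMDM libraries for 51 members (36.3% of all genes), and for 1 member, Pttg1, both lay below (40.0%).

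An additive fit of kind and tunicamycin over the 4 libraries gave the test. With Benjamini-Hochberg adjustment of edgeR's quasi-likelihood test at 0.05, 51 of 54 members rose in GM-BMDM (25.4% of all genes did), 1 fell (25.0%) and 2 did not pass. The same 52 were called under each of the 5 settings tried, 51 higher (21.4% of all genes under all 5) and 1 lower (17.5%). The median fitted log2 fold change was 2.88, against -0.04 over all genes. The fit leaves each gene 1 residual degree of freedom, shrunk toward the trend of all genes. Its error is the departure of these single libraries from additivity of kind and tunicamycin. It does not measure the spread between separate cultures of a kind. Of the members, 6 (Cdc25c, Kif4, Mybl2, Plk1, Spc24 and Ube2c) averaged under 1 CPM over the M-BMDM libraries and so passed the level minimum only through GM-BMDM. These 6 are among the 51 called higher, so for them the minimum and the call are not independent.

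**Figure D2:**
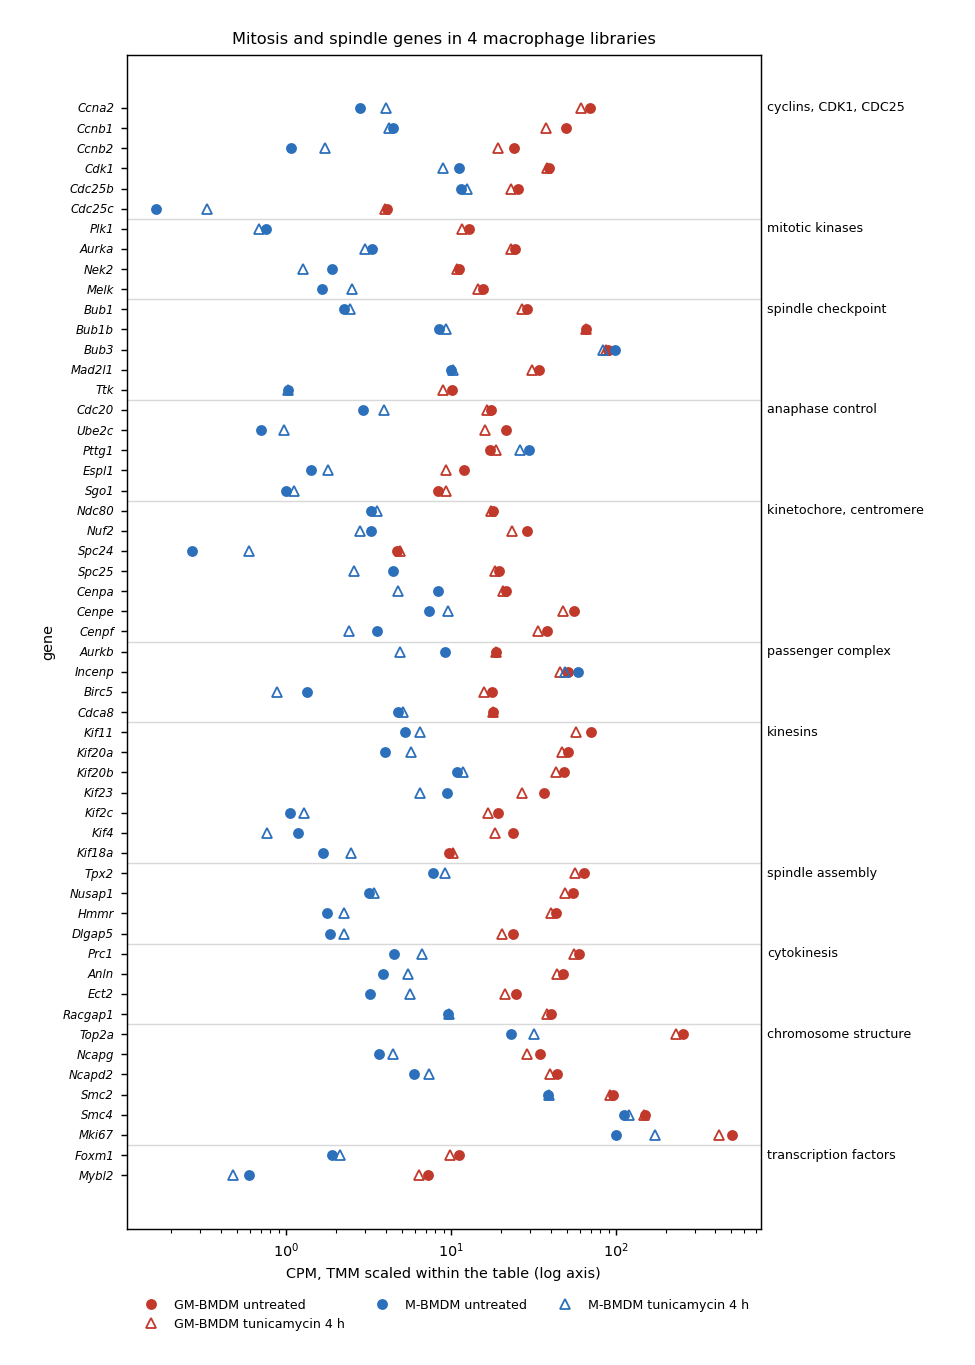
Level of each of the 54 genes (rows, grouped by role) in the 4 macrophage libraries, in CPM on a log axis, with red for GM-BMDM, blue for M-BMDM, filled circles for untreated and open triangles for tunicamycin. For 51 genes both red points lie to the right of both blue points; Bub3 and Incenp overlap, and Pttg1 lies the other way.

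All 6 genes of the cyclin and CDK group rose in GM-BMDM. Cyclin A2, Ccna2, which acts in S phase and at mitotic entry, stood at 69.5 and 61.0 CPM in untreated and tunicamycin-treated GM-BMDM and at 2.79 and 4.01 CPM in untreated and treated M-BMDM. Cyclin B2 was at 23.9, 19.2, 1.07 and 1.71 CPM in the same order, and cyclin B1, Ccnb1, at 49.4, 37.3, 4.43 and 4.22 CPM. In each the kinds did not overlap, and the untreated gap was 24.9-fold for Ccna2 (20.5 to 30.6), 22.2-fold for Ccnb2 (16.2 to 31.3) and 11.2-fold for Ccnb1 (9.51 to 13.2). Of the 50-base stretches of the longest Ccnb1 transcript, 42.1% also occur in transcripts of other genes, such as the pseudogene Ccnb1-ps. Reads of Ccnb1 may therefore be split.

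The kinase they activate differed less. Cdk1 stood at 39.1 and 38.1 CPM in GM-BMDM and at 11.2 and 8.89 CPM in M-BMDM, a 3.49-fold gap without tunicamycin (3.13 to 3.9). The phosphatase Cdc25b, which removes an inhibitory mark from CDK1, stood at 25.3 and 23.0 CPM against 11.4 and 12.4 CPM, the smallest gap of the group at 2.21-fold (1.98 to 2.48). Its relative Cdc25c rested on 165 and 167 reads in GM-BMDM and on 6 and 14 reads in M-BMDM, or 4.10, 3.94, 0.161 and 0.332 CPM, and its fold of 25.5 has a wide interval (11.4 to 70.4). Fitted log2 fold changes ran from 1.02 ± 0.14 (SE) for Cdc25b to 4.27 ± 0.20 for Ccna2.

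All 4 mitotic kinases rose. Aurka, the Aurora kinase of the spindle poles, stood at 24.4 and 23.0 CPM in GM-BMDM and at 3.30 and 2.99 CPM in M-BMDM (7.38-fold untreated, 6.11 to 8.98). Plk1, which drives centrosome maturation and mitotic entry, had the widest gap of the group, at 12.8 and 11.7 CPM against 0.751 and 0.687 CPM (17.1-fold, 11.7 to 26.0). Plk1 passed the level minimum only through GM-BMDM. Nek2, which separates centrosomes, had the narrowest on the log2(CPM + 1) scale, at 11.2 and 10.9 CPM against 1.88 and 1.26 CPM (2.08). The groups stood apart in every one of these genes.

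In the spindle checkpoint 4 of 5 genes rose and Bub3 did not. Bub1, a kinase that recruits checkpoint proteins to kinetochores, stood at 28.6 and 26.8 CPM in GM-BMDM against 2.23 and 2.42 CPM in M-BMDM (12.8-fold, 10.3 to 16.2). Bub3, its binding partner at the kinetochore, stood at 88.8 and 86.3 CPM in GM-BMDM and at 99.0 and 83.8 CPM in M-BMDM. The Bub3 libraries overlapped, and its fitted log2 fold change was -0.06 ± 0.12 (edgeR's quasi-likelihood test, Benjamini-Hochberg adjusted p = 0.71). The counting interval of Bub3 excluded 1 in the untreated pair, where GM-BMDM held 0.897 times the M-BMDM level (0.857 to 0.94), and included it after tunicamycin (1.03, 0.984 to 1.08). Bub3 lies at chr7:131560222-131571895 of GRCm38 on the plus strand. Fitted changes of Bub1b, Ttk and Mad2l1, also checkpoint genes, were 2.89, 3.22 and 1.68.

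Among the genes of anaphase control 4 rose and Pttg1 fell. Pttg1 encodes securin, which holds separase inactive until anaphase, and lies at chr11:43420250-43426251 of GRCm38 on the minus strand. It stood at 17.2 and 18.7 CPM in GM-BMDM and at 29.6 and 26.1 CPM in M-BMDM, so both GM-BMDM libraries were below both M-BMDM libraries. The M-BMDM level was 1.72 times that of GM-BMDM without tunicamycin (1.56 to 1.9) and 1.4 times with it (1.27 to 1.53), and the fitted log2 fold change was -0.63 ± 0.14 (edgeR's quasi-likelihood test, Benjamini-Hochberg adjusted p = 0.0083). Its partner separase, Espl1, went the other way, at 11.9 and 9.24 CPM in GM-BMDM against 1.42 and 1.78 CPM.

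Ube2c, the ubiquitin-conjugating enzyme of the anaphase-promoting complex, had the largest fitted change of the 54 genes (4.46 ± 0.24). It passed the level minimum only through GM-BMDM, with 26 and 41 reads in untreated and treated M-BMDM. It stood at 21.4 and 16.1 CPM in GM-BMDM and at 0.698 and 0.972 CPM in M-BMDM, a 30.7-fold gap without tunicamycin (20.8 to 47.2). Cdc20, the activator that the checkpoint restrains, stood at 17.3 and 16.5 CPM against 2.90 and 3.93 CPM. Sgo1, which guards centromeric cohesion, stood at 8.35 and 9.28 CPM against 0.993 and 1.11 CPM.

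All 7 kinetochore and centromere genes rose. Cenpf, a large kinetochore protein, showed the widest gap of the group on the log2(CPM + 1) scale (3.10), at 37.9 and 33.6 CPM in GM-BMDM against 3.54 and 2.39 CPM in M-BMDM (10.7-fold, 8.95 to 12.9). The centromeric histone Cenpa showed the narrowest, at 21.5 and 20.7 CPM against 8.27 and 4.76 CPM (2.6-fold, 2.28 to 2.97). The 4 subunits of the NDC80 complex, which grips microtubules, differed in level but not in direction, with fitted changes of 2.36 for Ndc80, 3.10 for Nuf2, 3.48 for Spc24 and 2.48 for Spc25. Spc24 rested on 10 and 25 reads in M-BMDM, at 0.268 and 0.592 CPM against 4.67 CPM in untreated GM-BMDM, and its untreated ratio of 17.4-fold, above that of Cenpf, has a wide interval (9.25 to 36.9).

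In the chromosomal passenger complex 3 of 4 genes rose and Incenp did not pass. The scaffold Incenp stood at 50.9 and 45.5 CPM in GM-BMDM and at 58.3 and 49.3 CPM in M-BMDM, which overlap. The fitted log2 fold change of Incenp was -0.16 ± 0.12 (edgeR's quasi-likelihood test, Benjamini-Hochberg adjusted p = 0.30). The kinase of the complex, Aurkb, stood at 18.8 and 18.6 CPM against 9.20 and 4.91 CPM, and rose with a fitted change of 1.46 ± 0.22. Survivin, Birc5, stood at 17.7 and 15.9 CPM against 1.34 and 0.877 CPM and rose by 3.94 ± 0.20, and borealin, Cdca8, rose by 1.86 ± 0.15. Within 1 complex the subunits thus ran from no called change to a 13.2-fold gap in the untreated pair.

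All 7 kinesins and all 4 spindle assembly genes rose. Kif11, the motor that pushes spindle poles apart, stood at 70.6 and 56.8 CPM in GM-BMDM and 5.23 and 6.42 CPM in M-BMDM (13.5-fold, 11.7 to 15.7). Kif23, a motor of the central spindle, had the smallest gap of the kinesins, at 36.4 and 26.7 CPM against 9.47 and 6.47 CPM (3.84-fold, 3.42 to 4.33). Hmmr, a microtubule-binding protein of the spindle pole, stood at 43.1 and 40.5 CPM against 1.77 and 2.25 CPM, with a fitted change of 4.37 ± 0.17. Tpx2, which activates Aurora A on microtubules, stood at 63.5 and 56.2 CPM against 7.70 and 9.15 CPM. Kif4, a chromosome-bound kinesin, rose by 4.45 ± 0.18, and Nusap1 by 3.98 ± 0.15.

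The 4 cytokinesis genes rose as well. Prc1, which bundles central spindle microtubules, stood at 59.3 and 55.7 CPM in GM-BMDM and at 4.48 and 6.64 CPM in M-BMDM (13.2-fold, 11.3 to 15.6). Racgap1, a subunit of centralspindlin, had the narrowest gap, at 40.4 and 38.2 CPM against 9.53 and 9.69 CPM (4.24-fold, 3.78 to 4.77). Anln and Ect2, which organize the contractile ring, rose by 3.30 ± 0.19 and 2.40 ± 0.25.

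All 6 genes of chromosome structure rose, over a wide range. Top2a, which untangles sister DNA, stood at 253 and 231 CPM in GM-BMDM and at 22.9 and 31.6 CPM in M-BMDM (11-fold, 10.3 to 11.9). Mki67, which coats mitotic chromosomes, stood at 502 and 420 CPM against 99.4 and 172 CPM (5.05-fold, 4.87 to 5.23). The condensin core subunits Smc2 and Smc4, which other stages of the cell cycle also use, differed least, with Smc2 at 95.9 and 92.3 CPM against 38.8 and 38.9 CPM and Smc4 at 150 and 147 CPM against 112 and 120 CPM. Smc4 still passed the test (0.36 ± 0.11; Benjamini-Hochberg adjusted values of edgeR's quasi-likelihood test, adjusted p = 0.034). The condensin I subunits Ncapg and Ncapd2 rose by 2.95 and 2.65.

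Both transcription factors of late cell cycle genes rose. Foxm1 stood at 11.2 and 9.78 CPM in GM-BMDM and at 1.88 and 2.11 CPM in M-BMDM, and Mybl2, the MYB subunit of the MuvB complex, at 7.23 and 6.36 CPM against 0.590 and 0.474 CPM. Fitted changes were 2.39 ± 0.20 for Foxm1 and 3.67 ± 0.26 for Mybl2, which rested on 22 and 20 reads in M-BMDM.

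**Figure D3:**
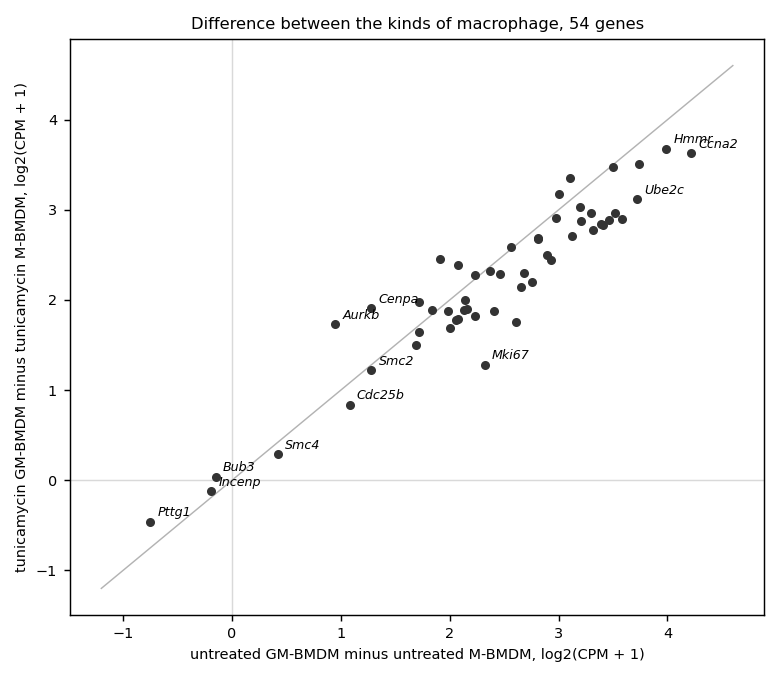
Difference between GM-BMDM and M-BMDM in log2(CPM + 1) for the 54 genes, untreated on the x axis and after tunicamycin on the y axis, with the line of equality in grey. Pttg1, Incenp and Bub3 lie near or below 0, Smc4 close above, and most other genes between 1 and 4 on both axes; Aurkb lies above the line and Mki67 below it.

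The untreated and the tunicamycin-treated pairs share no library, and across the 54 genes the 2 gaps between kinds were correlated at 0.94 (Pearson) and 0.91 (Spearman), with no p given (0.95 and 0.89 across 11049 genes). Genes are not independent replicates. The genes nearest to the 2-fold limit in the untreated pair were Aurkb (0.95) below it and Cdc25b (1.08) above it on the log2(CPM + 1) scale.

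Other genes of the cell cycle were read from lists. Of 68 other mitosis genes 57 rose in GM-BMDM and 1 fell (median fitted log2 fold change 2.22), and of 38 DNA replication genes 34 rose and 0 fell (1.30). Rrm2, the ribonucleotide reductase subunit of S phase, stood at 39.3 and 37.4 CPM in GM-BMDM against 2.15 and 2.54 CPM, and the cohesin acetyltransferase Esco2 at 19.9 and 18.7 CPM against 0.805 and 1.35 CPM. Of 20 genes of G1 and S control 10 rose and 1 fell (0.34), led by cyclin D2, Ccnd2, at 78.0 and 46.4 CPM against 1.53 and 2.25 CPM. The subunits and regulators of the anaphase-promoting complex gave 3 of 17 up (25.4% of all genes) and 2 down (25.0%), a share at or under that of all genes, with a median of 0.05. Of 9 CDK inhibitors compared 3 rose and 3 fell (-0.52), also not far from the shares of all genes. Cdkn1a, p21, stood at 66.1 and 57.8 CPM in GM-BMDM against 22.0 and 42.5 CPM, and Cdkn1b, p27, at 51.9 and 54.3 CPM against 105 and 107 CPM.

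Markers of other marrow cells differed between the kinds beside the mitosis genes. The neutrophil list (8 of 13 compared) summed to 1700 and 1630 CPM in GM-BMDM and 255 and 242 CPM in M-BMDM, with S100a8 at 63.1 and 34.7 CPM against 1.74 and 1.97 CPM, while Csf3r ran the other way (8.57 and 8.18 against 190 and 199 CPM). The progenitor list (5 of 11 compared) summed to 69.9 and 41.6 CPM against 1.58 and 3.60 CPM. In it Kit stood at 35.6 and 25.5 CPM against 0.778 and 0.640 CPM, Cd34 at 16.9 and 6.32 CPM against 0.215 and 0.190 CPM, and Ms4a3 had 0 counts in both M-BMDM libraries. The list for mast cells, basophils and eosinophils (3 of 8 compared) summed to 105 and 83.5 CPM against 0.912 and 0.853 CPM. The epithelium list (1 of 8 compared) summed to 74.0 and 32.3 CPM against 0.107 and 0.261 CPM. Nearly all of it was Cdh1, the adhesion protein E-cadherin, at 73.5 and 32.1 CPM against 0.0268 and 0.190 CPM, while Epcam reached 0.447 CPM at most and Krt19, Cldn4 and Sftpc had 0 counts in all 4 BMDM libraries. Lymphocyte, erythroid and fibroblast lists summed to at most 8.32 CPM in any BMDM library. The 12 macrophage markers summed to 41000 and 38800 CPM in GM-BMDM and 52700 and 33200 CPM in M-BMDM, with Adgre1 at 470 and 434 CPM against 3160 and 2550 CPM. The part of these cells in the difference of the mitosis genes was not tested.

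The next comparison was tunicamycin against none within each kind. In GM-BMDM the differences were small and mostly downward. Of the 54 genes 49 were lower after tunicamycin (49.7% of all genes were), with a median log2 difference of -0.13 against 0.00 over all genes, and none was 2-fold lower (0.443%). Counting intervals lay below 1 for 27 and above 1 for 0. These intervals were not computed for other genes, so no share over all genes stands beside the counts. Mki67 was at 420 CPM after tunicamycin and 502 CPM before (0.837-fold, 0.82 to 0.854), Ccnb1 at 37.3 and 49.4 CPM (0.756-fold), and Kif23 at 26.7 and 36.4 CPM (0.733-fold, 0.677 to 0.792). Scaled to total counts instead, the median of all genes moved by 0.05 and 12 members, not 5, lay above 0.

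In M-BMDM the members went both ways. The median log2 difference was 0.10 against 0.00 over all genes, with 36 members higher (50.8% of all genes) and 18 lower (49.1%), and none at least 2-fold (1.18% higher, 0.29% lower). Mki67 stood at 172 CPM after tunicamycin and 99.4 CPM before (1.73-fold, 1.66 to 1.8), and Ect2 at 5.59 and 3.22 CPM (1.74-fold, 1.39 to 2.18). On the other side Aurkb stood at 4.91 and 9.20 CPM (0.533-fold, 0.446 to 0.635), Cenpa at 4.76 and 8.27 CPM (0.576-fold, 0.48 to 0.691) and Spc25 at 2.56 and 4.43 CPM (0.578-fold, 0.449 to 0.741). Counting intervals lay above 1 for 17 members and below 1 for 10, again without a share over all genes. With scaling to total counts the median of all genes moved by 0.11 and 38 members lay above 0.

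No effect of tunicamycin common to both kinds passed the test. After Benjamini-Hochberg adjustment edgeR's quasi-likelihood test called 0 of 54 members (0.0% of all genes in either direction). As it called no gene of the 11049 compared, this result does not set the members apart from other genes. Before adjustment 2 members were under 0.05, beside 1099 of all 11049 genes compared. DESeq2 called 0 members (0.471% of all genes). In that fit the difference between the responses of the kinds is the error. The responses of the kinds share no library, and across the 54 genes the correlation was -0.08 (Pearson) and -0.16 (Spearman), against 0.33 and 0.31 across 11049 genes. Kif23 was lower in both (-0.43 and -0.49), while Mki67 was lower in GM-BMDM (-0.26) and higher in M-BMDM (0.78), as log2 differences.

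The tumour cells were compared next, each medium against no medium. The 4 comparisons share the untreated library, so whatever is particular to it enters all of them. The module was modestly higher with each medium. The 54 genes summed to 7920 CPM in untreated LLC cells, 9790 and 9520 CPM with unstressed GM and M medium, and 8960 and 9230 CPM with stressed GM and M medium. Median log2 differences were 0.33, 0.32, 0.23 and 0.27 in the same order, against 0.03, 0.02, 0.02 and 0.02 over all genes. Members above 0 numbered 48 (53.1% of all genes), 49 (52.6%), 44 (51.8%) and 45 (51.7%). A difference of at least 2-fold was met by 1 member in 1 comparison, Mybl2 with stressed GM medium (1.48% of all genes there).

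**Figure D4:**
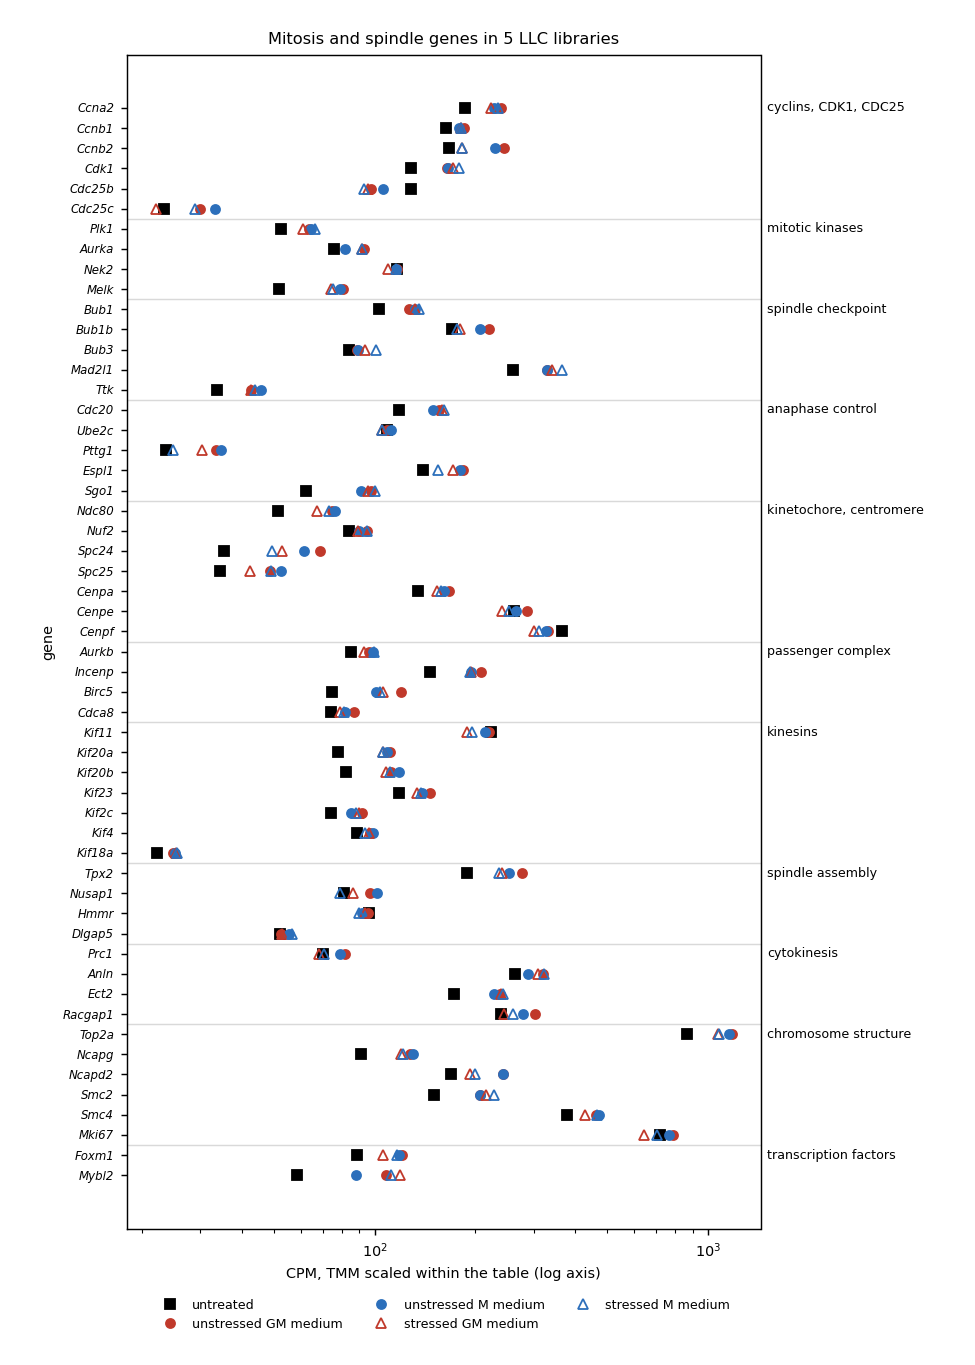
Level of each of the 54 genes (rows, grouped by role) in the 5 LLC libraries, in CPM on a log axis, with black squares for untreated cells, circles for unstressed medium, triangles for stressed medium, red for GM and blue for M medium. The untreated library lies left of all media for most genes and right of them for Cdc25b and Cenpf, and level with or just right of them for Kif11, Hmmr and Nek2; for Ccnb2 both stressed media lie left of both unstressed media.

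In the additive fit of the 5 libraries 37 of 54 members rose with medium (24.8% of all genes), 2 fell (21.9%) and 15 did not pass (edgeR, Benjamini-Hochberg adjusted). The median fitted log2 fold change was 0.28, against 0.02 over all genes. DESeq2 called 26 members (17.8% of all genes in either direction), and a fit with medium as its only term called 20 (14.4%). Under all 5 settings 19 were called higher (5.93% of all genes) and 1, Cdc25b, lower (5.65%). The LLC spread was taken from the trend over genes and was small (coefficient of variation 4.28%), so small changes pass, and all these calls rest on 1 untreated library.

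The largest fitted rises were those of Mybl2, Spc24, Sgo1, Melk and Birc5. Mybl2 stood at 58.5 CPM in untreated cells, 108 and 87.8 CPM with unstressed GM and M medium, and 119 and 112 CPM with stressed GM and M medium, and rose by 0.86 ± 0.078 (SE). Of the 50-base stretches of the longest Mybl2 transcript, 23.8% are shared with the gene models Gm3320 and AC151978.1. Spc24 stood at 35.2, 68.5, 61.4, 52.9 and 49.3 CPM in that order and rose by 0.71 ± 0.095. Untreated cells were lowest in both genes. The other NDC80 subunits gave 0.50 (Ndc80), 0.48 (Spc25) and 0.13 (Nuf2, not past the threshold).

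Sgo1 stood at 62.1 CPM in untreated cells and at 97.7, 91.0, 95.7 and 100 CPM with unstressed GM, unstressed M, stressed GM and stressed M medium (0.63 ± 0.077). Melk, a mitotic kinase of uncertain role, stood at 51.8, 80.1, 78.7, 73.9 and 74.8 CPM (0.57 ± 0.082), and Birc5 at 74.5, 120, 101, 106 and 104 CPM (0.53 ± 0.075). In these 3 genes every medium lay above the untreated library. Further genes called under all 5 settings were Smc2 and Ndc80 (each 0.50), Kif20a (0.47), Ect2 and Kif20b (each 0.46), Ncapg (0.45), Incenp (0.43), Tpx2 (0.42), Cdc20 (0.41), Cdk1 (0.40), Mad2l1 (0.39), Foxm1 (0.38), Top2a (0.37) and Bub1 (0.35).

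Within the cyclin and CDK group Cdk1 stood at 129 CPM in untreated cells and 165, 166, 172 and 179 CPM with unstressed GM, unstressed M, stressed GM and stressed M medium (0.40 ± 0.069). Ccna2 stood at 187, 240, 228, 223 and 235 CPM in that order (0.31 ± 0.066). Ccnb1 stood at 164, 186, 179, 182 and 182 CPM, a rise of 0.16 ± 0.067 that was lost under each of the 4 other settings. Cdc25b went the other way, at 129 CPM untreated and 97.3, 106, 95.4 and 92.8 CPM with medium, and fell by 0.41 on the log2 scale (SE 0.068). Cenpf also fell, from 364 CPM to 332, 327, 300 and 311 CPM (-0.20 ± 0.062), a call lost with medium as the only term.

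The 15 genes that did not pass include Ube2c, Kif4 and Hmmr, which had the widest fitted changes between kinds of macrophage (4.46, 4.45 and 4.37). In macrophages Ube2c and Kif4 passed the level minimum only through GM-BMDM. The 15 also include Mki67, whose change between kinds of macrophage (1.81) lay below the median over members (2.88). Mki67 stood at 721 CPM untreated and at 789, 764, 644 and 705 CPM with unstressed GM, unstressed M, stressed GM and stressed M medium. Its fitted change was 0.00 ± 0.060, and -0.01 and -0.02 with DESeq2 size factors and with DESeq2. Hmmr stood at 96.3, 95.4, 91.6, 93.5 and 89.8 CPM (-0.06 ± 0.071), Ube2c at 109, 109, 112, 105 and 105 CPM (-0.01 ± 0.070), and Kif11 at 224, 221, 214, 190 and 196 CPM (-0.13 ± 0.064). In these genes the untreated library lay within or above the range of the media. The others were Nek2, Nuf2, Cenpe, Kif4, Kif18a, Dlgap5, Prc1, Cdca8, Bub3, Nusap1 and Cdc25c, from -0.03 to 0.27.

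**Figure D5:**
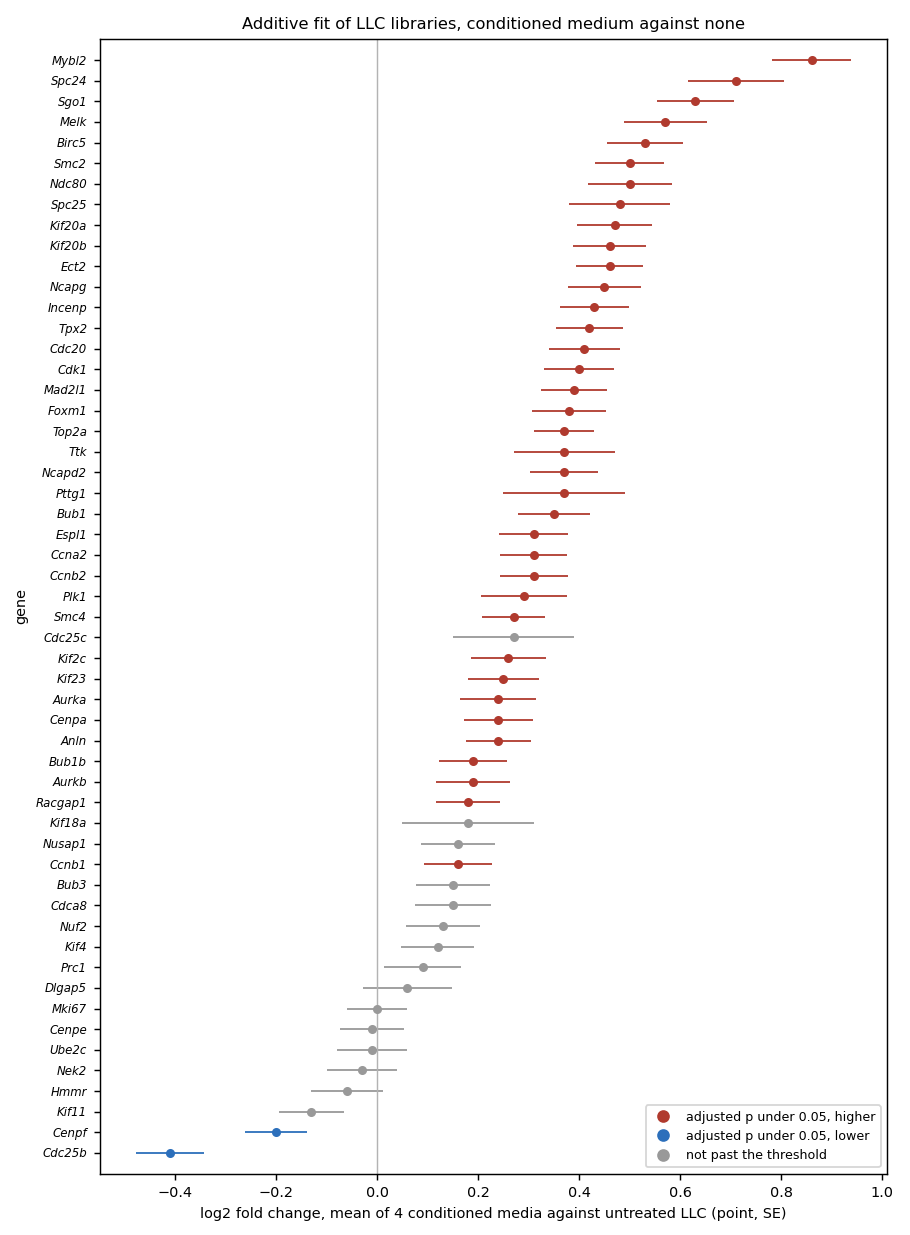
Fitted log2 fold change of conditioned medium (mean of 4 media) against no medium for each of the 54 genes in LLC cells, with bars of 1 SE on each side; red rose, blue fell and grey did not pass the edgeR threshold of 0.05 after adjustment. Mybl2 (0.86) and Spc24 (0.71) lie highest, Cdc25b (-0.41) lowest, and Mki67 at 0.00.

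DNA replication genes had a larger median than mitosis genes in the same fit, a difference that was not tested. Of 37 compared 36 rose and 1 fell, with a median of 0.74, against 45 of 68 up, 0 down and 0.27 in the other mitosis list. Cdc6, which loads the replicative helicase, stood at 26.7 CPM untreated and at 60.2, 56.6, 68.6 and 70.8 CPM with unstressed GM, unstressed M, stressed GM and stressed M medium. Of 17 genes of the anaphase-promoting complex 7 rose and 0 fell (0.13), and of 7 CDK inhibitors compared 2 rose and 3 fell (-0.14), beside 24.8% of all genes higher and 21.9% lower. Cdkn1a stood at 7.64 CPM untreated and 17.0, 14.6, 22.9 and 17.3 CPM with medium, and Cdkn1b at 189 against 137, 154, 123 and 136 CPM. The summed macrophage markers were 45.4 CPM untreated and 28.9 to 33.2 CPM with medium.

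Stressed medium was then set against unstressed medium. With GM medium 44 of 54 members were lower in the stressed library (50.8% of all genes), with a median log2 difference of -0.10 against 0.00, and with M medium 33 were lower (50.3%), with -0.03 against 0.00. The pairs share no library, and across the 54 genes the correlation was 0.71 (Pearson) and 0.73 (Spearman) (0.62 and 0.57 across 11190 genes). Both stressed libraries lay below both unstressed ones for 29 members (27.8% of all genes) and above them for 8 (27.7%). In the fit 14 members fell (10.9% of all genes) and 1 rose (12.5%) (edgeR, Benjamini-Hochberg adjusted). DESeq2 called 3 (4.31% of all genes in either direction) and a fit with this effect as its only term called 5 (7.97%), so under both settings the members' share was near that of all genes. Ccnb2 and Ncapd2 were the 2 called under all 5 settings, both lower (1.14% of all genes).

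Ccnb2 stood at 244 and 230 CPM with unstressed GM and M medium and at 183 CPM with each stressed medium, between those levels and the 167 CPM of untreated cells. It fell by 0.37 on the log2 scale (SE 0.058). Ncapd2 stood at 243 CPM with each unstressed medium, 194 and 200 CPM with stressed GM and M medium and 170 CPM untreated (-0.30 ± 0.058). Bub1b stood at 221 and 207 CPM, 181 and 177 CPM, and 171 CPM in that order (-0.26 ± 0.058). In these 3 genes the stressed libraries lay between the untreated and the unstressed ones. Spc24 (-0.35), Cdc25c (-0.32), Pttg1 (-0.31), Nusap1 (-0.27), Prc1 (-0.21), Mki67 and Racgap1 (each -0.20), Kif11 (-0.17), Espl1 (-0.16), and Tpx2 and Cenpe (each -0.15) also fell. Neither these genes nor Bub1b were called under all 5 settings, so their falls depend on the fit used. Mybl2 rose by 0.24 ± 0.063, with both stressed libraries above both unstressed ones, but was also not called under all 5 settings.

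No member passed the test between media of the 2 kinds of macrophage. After Benjamini-Hochberg adjustment edgeR's quasi-likelihood test called 0 of 54 between GM and M medium (2.21% of all genes higher, 2.32% lower). Before adjustment 3 members were under 0.05, beside 1507 of all 11190 genes compared. DESeq2 called 0 members (0.322% of all genes). Median log2 differences of GM minus M medium were 0.03 for unstressed and -0.04 for stressed medium, against 0.01 and -0.01 over all genes.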

How the data were processed

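RNA was taken with Trizol per the labels' protocols and sequenced in 9 libraries. Whole-number read counts and FPKM per gene were deposited by the authors in 1 table for LLC and 1 for BMDM, per the file headers. Tools named are HISAT2, TopHat2 2.1.0 and cutadapt 1.15, without role or order, per the submitters' processing notes. How reads were counted, whether strand was used, and the authors' genome build are not given in the sources used here. All 54 genes had the coordinates of GENCODE M21 (GRCm38), as did 99.0% of 21817 LLC identifiers, so positions are printed for that build. A line-end character in the last LLC column was stripped. The deposited FPKM were used to set levels of genes side by side.

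CPM were computed from the deposited counts with TMM library sizes per table (edgeR 4.0.16, R 4.3.3, Python 3.11.15). Genes whose mean in a table reached 1 CPM were compared, 11190 in LLC and 11049 in BMDM. Differences are log2(CPM + 1), which understates folds of low genes, and folds are CPM ratios with exact Clopper-Pearson intervals at 95%. Additive fits (BMDM: kind and tunicamycin; LLC: medium, kind of medium and tunicamycin of the macrophages) were tested on counts by edgeR's quasi-likelihood method, adjusted over all genes by Benjamini-Hochberg at 0.05. SE is the absolute log2 fold change over the square root of F. Scripts were tested on simulated data. Alternatives were DESeq2 1.42.0, its size factors in edgeR, no level minimum, a minimum of 5 CPM, total-count scaling, a pseudocount of 0.25, and the effect as the only term.

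The 54 genes and the lists were chosen with earlier results of these data known. Values in every library are given for the cyclin and CDK group and, per role, for the member of highest mean FPKM in BMDM and those with the largest and smallest difference between untreated kinds or with medium. Of the other lists up to 3 genes with the largest difference are named. Genes outside these rules, such as Cdc20 and Mki67 with tunicamycin, Ncapd2, Bub1b, Espl1, Cdkn1b and the marker genes, were named after their values were seen. Exon overlap was read from GENCODE M21.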

Additional observations from a re-analysis of the deposited data

Results flagged for a closer look

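The median tunicamycin response of the 54 genes differed in sign between the kinds of macrophage. It was -0.13 in GM-BMDM and 0.10 in M-BMDM as a log2 difference, which leaves -0.24 as the median difference of responses, against 0.00 over all genes in each kind. The difference was not tested, since each group holds 1 library. Ect2 (-0.22 and 0.64) and Mki67 (-0.26 and 0.78) lay far on one side, and Aurkb (-0.01 and -0.79) and Cenpa (-0.05 and -0.68) on the other. The other mitosis list gave -0.13 and 0.05, and the DNA replication list -0.15 and -0.01.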

How the results depend on the processing

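Of the medians and counts of calls, 75 values under alternatives kept their direction and size class. The number of members called with medium in LLC was 39 and became 20 with medium as the only term. With the tunicamycin of the macrophages it was 15 and became 3 with DESeq2 and 5 with this effect as the only term. A pseudocount of 0.25 moved the median gap between kinds of macrophage from 2.51 to 2.90 untreated and from 2.30 to 2.68 after tunicamycin. For single genes the kind of macrophage was refitted for 54 members and all 216 values kept their call. With medium in LLC 180 kept it, 34 lost it and 2 changed sign, and for the 15 members called with the tunicamycin of the macrophages 39 kept it and 21 lost it. The changes of sign are Mki67 with medium (0.00), at -0.02 with DESeq2 and -0.01 with DESeq2 size factors in edgeR. No paired analysis was possible because each group holds 1 library and the titles carry no replicate numbers. Leaving out a library would leave the additive fits no residual degree of freedom, so no such fit was run. Counts of 6 to 29 reads limit Cdc25c, Spc24, Mybl2 and Plk1 in M-BMDM, as do 26 reads for Ube2c in the untreated library.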
